A study of Mus musculus with 16 samples.

Results

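Activity-regulated synaptic effector genes are the 10 genes described here: Arc, Homer1, Plk2, Nptx2, Inhba, Pcsk1, Ptgs2, Rgs2, Gadd45b and Gadd45g. They were taken as the rows of the count table whose Ensembl identifier carries one of these symbols in the mouse GENCODE annotation, which gave 10 of the 35328 genes in the table. All 10 passed the filter on low counts, which left 17830 genes. RNA-Seq was performed on the dorsal hippocampus of 16 male C57BL/6J mice, with 4 mice in each of 4 groups that differed in what the mice drank and in whether they were trained. Home cage water mice drank plain water and stayed in their cage. Home cage caffeine mice drank water with 0.3 g/L caffeine. The 2 learning groups (learning water and learning caffeine) drank the same fluids and were trained for 3 days, 4 trials a day, in the Morris water maze, a pool in which mice learn the place of a hidden platform, and their tissue was taken 1 h after the last trial. Drinking started at 8 to 9 weeks of age and lasted 2 weeks in every group, and all mice were wild type. Home cage mice did not swim, so learning, swimming and handling cannot be told apart in any comparison of learning with home cage mice.

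Synaptic activity in a neuron first switches on immediate early genes within minutes. Some of them, such as Fos and Egr1, encode transcription factors, whereas effector genes encode proteins that act on the synapse, on secretion, on signalling or on chromatin. In the hippocampus, several of these effectors are known to be induced by exploration of a new place, by seizures or by strong synaptic stimulation, and the mRNA of many of them decays quickly. The products of the 10 genes sit at the postsynaptic side (Arc, Homer1, Plk2), are secreted (Nptx2, Inhba), process secreted peptides (Pcsk1), make prostaglandins (Ptgs2), damp G protein signalling (Rgs2) or act in stress signalling and DNA demethylation (Gadd45b, Gadd45g).

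The libraries held between 23078094 and 49949281 counted reads, with a median of 36437284.5, and the members between 181 and 14743 reads per library. Excitatory neuron markers (Slc17a7, Neurod6, Camk2a, Nrgn) summed to between 6818 and 8018 CPM (counts per 1000000 counted reads, after scaling for library composition) over the 16 mice, and no marker gene of any cell type examined was at 0 reads. A few libraries stood apart. Home cage caffeine mouse 17 had the highest share of mitochondrial reads, 4.495%, with 3.232% to 3.889% in the other mice, and lay farthest from the rest on the first principal component. Home cage water mouse 20 had the highest summed choroid plexus markers, 2342 CPM, with 118.2 to 1153 CPM in the others, and learning water mouse 24 had the highest oligodendrocyte sum, 9827 CPM, with 4017 to 7498 CPM in the others, and the lowest sum of CA1 markers, 360.0 CPM. The log2 fold changes of the members and the counts of called genes were also computed without each mouse and without these 3 mice together. In bulk tissue, fewer cells of a type and less RNA per cell cannot be told apart.

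The levels of the 10 genes differed widely from one another. On the scale of CPM per kb of exon, which allows genes to be compared, Plk2 led in home cage water mice with 61.75 (n = 4), followed by Arc with 22.47. Homer1, Nptx2, Rgs2, Gadd45g and Ptgs2 followed at 11.08, 10.97, 10.25, 9.605 and 8.691 CPM per kb, and each of these overlapped its neighbour in that order over the 4 mice. Gadd45b at 5.12, Pcsk1 at 3.644 and Inhba at 1.735 CPM per kb were each lower than the gene before, with no overlap. In the learning groups Arc reached 54.22 CPM per kb with water and 52.21 with caffeine, and its range then overlapped that of Plk2, at 58.05 and 62.63. Among all tested genes, Plk2 lay above 96.49% and Gadd45b above 43.18% by average CPM.

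**Figure D1:**
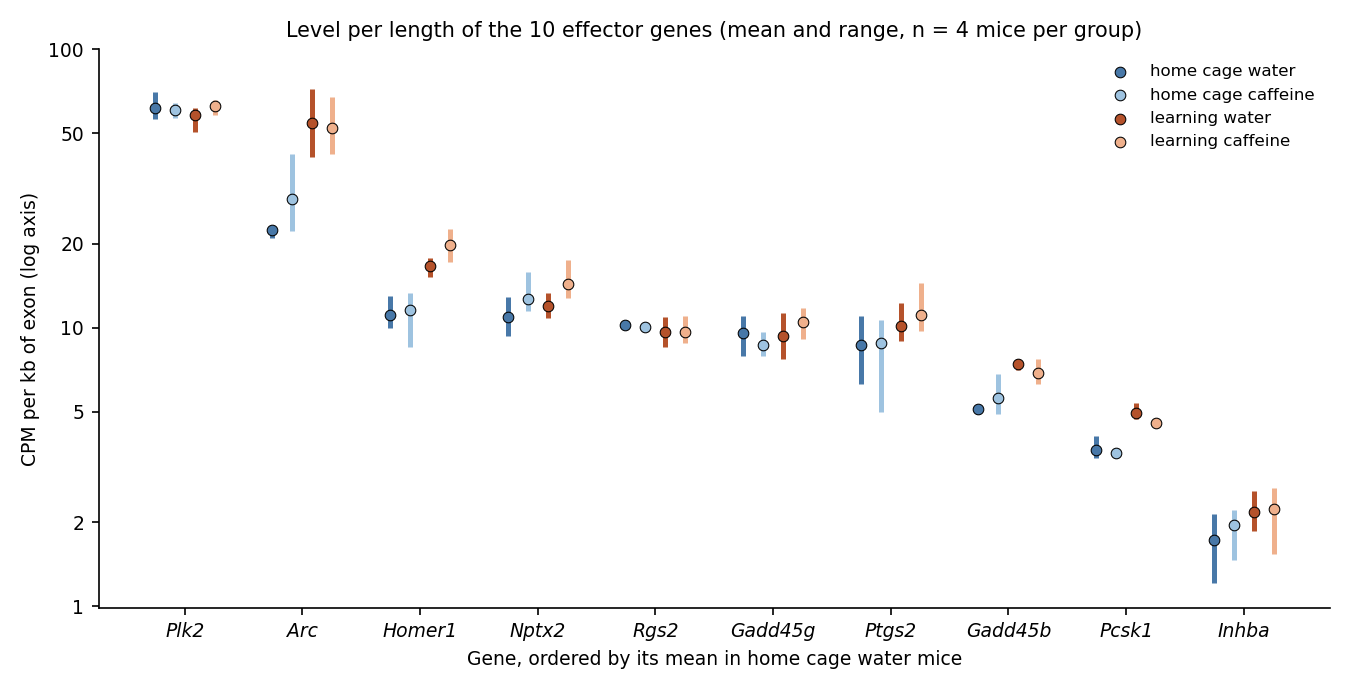
Level of each gene in CPM per kb of exon on a log axis, as the mean (point) and the range (line) over the 4 mice of each group. Plk2 is highest in home cage water mice at 61.75, and Arc moves from 22.47 in home cage water mice to 54.22 in learning water mice.

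Promoter sequence was taken from RefSeq (GRCm38.p6) for the 8 members that had an entry, as 250 bases before to 50 bases after the start of transcription. Arc and Nptx2 had none. Homer1 had 2 windows, and the upstream one is described. The windows were searched on both strands for the core TGACG of the cAMP response element (CRE), the site bound by CREB, the activity-responsive transcription factor. The core was found in 5 of the 8 members, namely Homer1, Plk2, Pcsk1, Ptgs2 and Rgs2, and in 20.8% of all 32851 promoter windows of the same length. The full palindrome TGACGTCA, which holds the core on both strands, was found in Plk2 and Pcsk1 and in 1.79% of all windows. Homer1 held 3 copies of the core in its upstream window and 0 in its other window. Plk2 and Pcsk1 also held 3 copies, as the palindrome counts on both strands. By the same count 1.03% of all windows held 3 or more. The Plk2 copy that begins 21 bases after the start is not in the printed stretch. A match is a description of the letters in the window and not evidence of binding. The stretches before the start, cut where an annotated exon begins, are shown so that they can be read beside the values below. They are those of Homer1 and Pcsk1, which rose after learning with both fluids, and of Plk2, which was not called. Gadd45b, also shown, was called in water mice and on average but not in caffeine mice. The Homer1 stretch lies inside the annotated gene, which begins at base 93299635, and is not the sequence before its first exon. Capitals mark the core on either strand, and all 4 lie on the plus strand.
Homer1, chr13:93303507-93303756: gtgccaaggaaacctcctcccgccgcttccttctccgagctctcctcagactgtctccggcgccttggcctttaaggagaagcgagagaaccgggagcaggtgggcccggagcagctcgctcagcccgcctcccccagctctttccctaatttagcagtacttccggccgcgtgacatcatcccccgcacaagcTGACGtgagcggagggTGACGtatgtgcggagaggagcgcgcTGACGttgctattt
Pcsk1, chr13:75089607-75089825: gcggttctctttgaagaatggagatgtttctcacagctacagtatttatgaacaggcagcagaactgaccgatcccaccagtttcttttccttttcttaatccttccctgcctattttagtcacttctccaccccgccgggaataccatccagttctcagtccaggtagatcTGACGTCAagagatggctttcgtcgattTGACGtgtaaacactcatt
Plk2, chr13:110394794-110395043: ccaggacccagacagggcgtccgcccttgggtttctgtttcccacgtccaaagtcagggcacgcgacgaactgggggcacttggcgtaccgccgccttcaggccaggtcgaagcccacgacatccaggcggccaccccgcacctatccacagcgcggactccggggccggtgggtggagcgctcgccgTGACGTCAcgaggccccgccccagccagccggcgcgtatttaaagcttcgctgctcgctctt
Gadd45b, chr10:80929841-80930072: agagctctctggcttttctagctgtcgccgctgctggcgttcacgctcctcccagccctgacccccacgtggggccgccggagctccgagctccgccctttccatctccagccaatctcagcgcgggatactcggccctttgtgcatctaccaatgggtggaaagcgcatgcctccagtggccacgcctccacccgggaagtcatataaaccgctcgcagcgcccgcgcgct
In Homer1 the 3 copies began 56, 40 and 14 bases before the start. The palindrome began 78 bases before the start in Pcsk1 and 62 bases before it in Plk2. The printed Gadd45b stretch held no core. The AP-1 site TGANTCA was in none of the 8 members and in 7.81% of all windows, the EGR site GCGNGGGCG was in 2 members, Rgs2 and Gadd45b, and in 5.55% of all windows, and the CArG box was in none and in 1.63% of all windows.

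The first question was which of these genes differed between learning and home cage mice. In water mice 4 of the 10 members rose and none fell. Arc rose most, by 1.27 on the log2 scale, followed by Homer1 (0.59), Gadd45b (0.53) and Pcsk1 (0.43). The threshold for a call was an adjusted p of 0.1 by the quasi-likelihood test of edgeR. In this comparison 0.97% of all tested genes were called, and 0.639% of all tested genes were called as higher. In caffeine mice 3 of the 10 rose (Arc, Homer1 and Pcsk1) and none fell, where 5.28% of all tested genes were called and 3.16% were higher. Averaged over both fluids, the same 4 genes as in water mice rose and none fell, where 14.5% of all tested genes were called and 7.81% were higher. The median log2 fold change of the 10 members was 0.27 in water mice and 0.28 in caffeine mice, and it was −0.01 over all tested genes in each. These 2 comparisons share no mice, but both come from the same fit and share its estimate of the spread. With no overlap between the groups, every learning mouse was above every home cage mouse for 4 members in water mice and 3 in caffeine mice, where 3.87% and 5.64% of all tested genes were apart in that direction. Leaving out a single mouse gave between 2 and 4 called members in water mice, the lowest without learning water mouse 36, between 3 and 4 in caffeine mice and between 4 and 5 on average, where Nptx2 was called without home cage caffeine mouse 2 (adjusted p = 0.08777) and Inhba without learning caffeine mouse 27 (adjusted p = 0.07617).

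**Figure D2:**
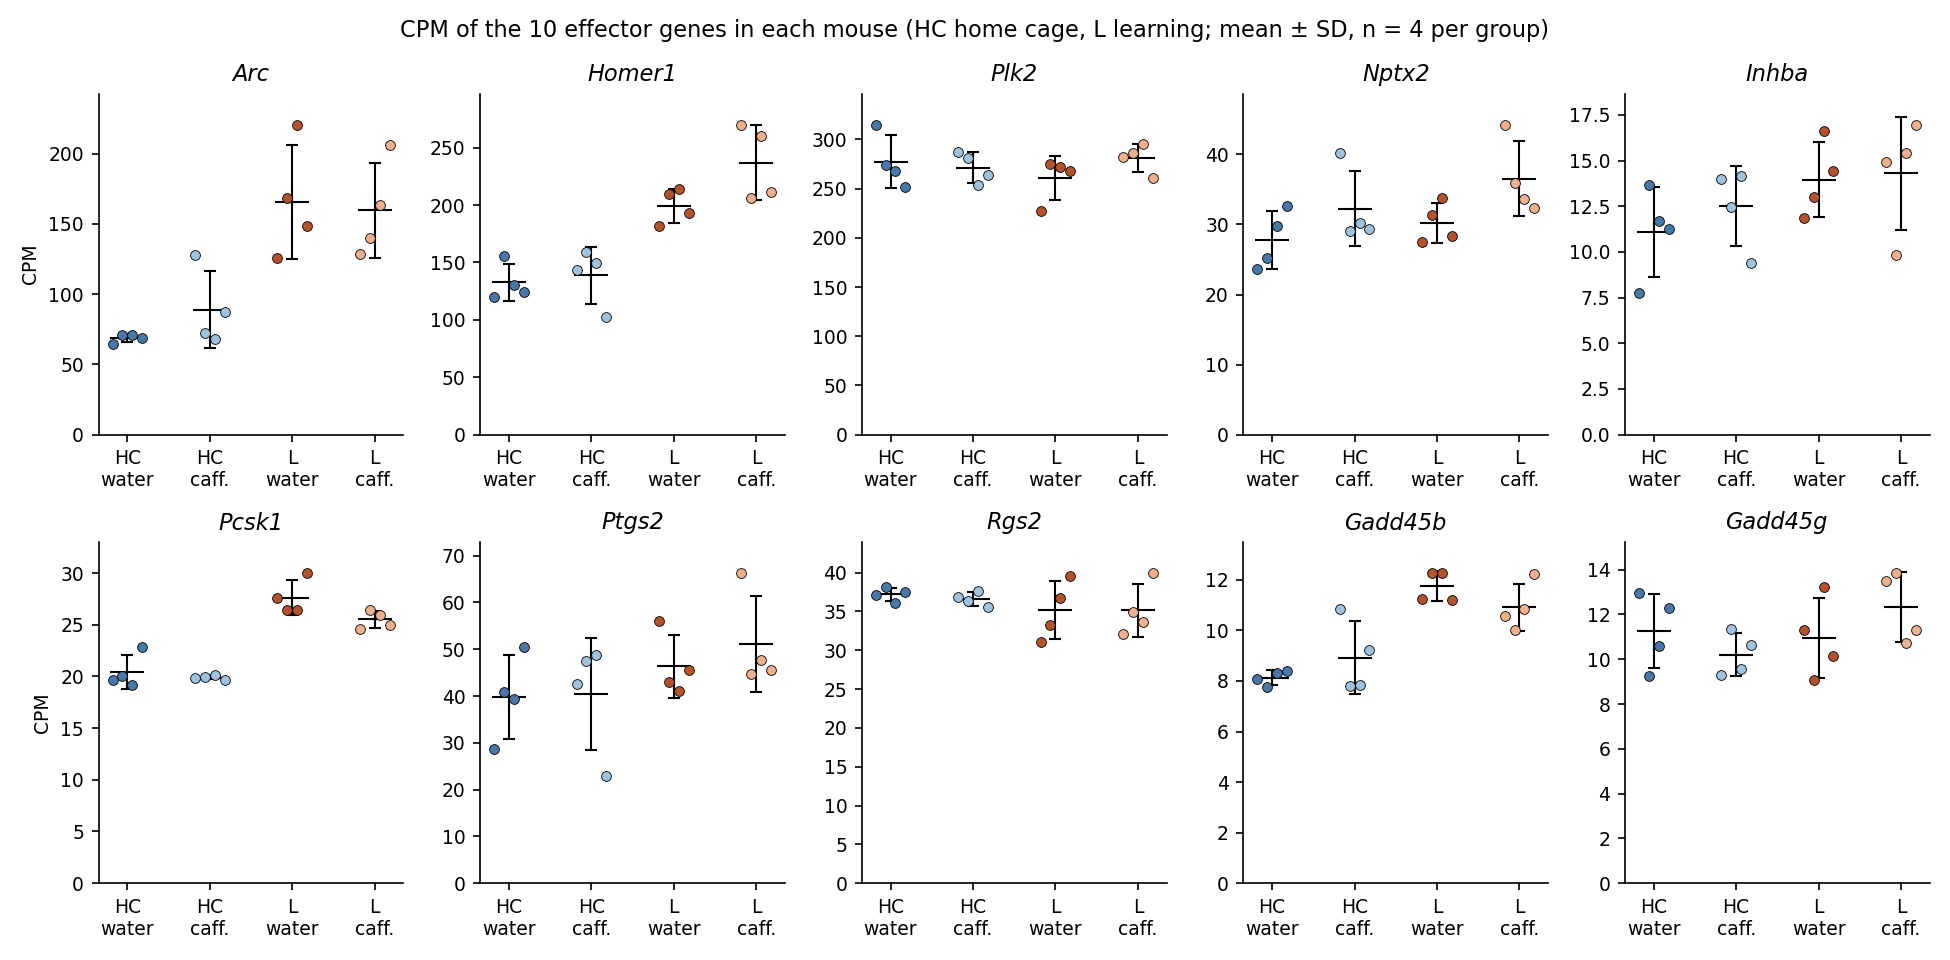
CPM of each gene in each of the 16 mice (points, from the left by mouse number) with the mean and SD of each group of 4, on axes that start at 0. Arc, Homer1 and Pcsk1 are higher in every learning mouse than in every home cage mouse with the same fluid, whereas Plk2 and Rgs2 overlap throughout.

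Arc (ENSMUSG00000022602, chr15:74669083-74672570, minus strand, GRCm38) encodes a postsynaptic protein that promotes the removal of AMPA receptors from the synapse, and its mRNA travels into dendrites. Arc stood at 64.39, 70.89, 70.74 and 68.69 CPM in home cage water mice 6, 8, 11 and 20. It stood at 125.5, 168.3, 220.7 and 148.4 CPM in learning water mice 24, 33, 36 and 38. The home cage water mice lay close together and the learning water mice spread widely, with no overlap between the groups. The rise was 1.27 (SE 0.19, adjusted p = 0.004273, edgeR), or 2.41-fold, and the exact permutation test of the 4 against 4 mice gave p = 0.02857, the smallest it can give. In caffeine mice Arc stood at 128.2, 72.17, 68.26 and 87.05 CPM in home cage mice 2, 9, 14 and 17. It stood at 128.9, 140.3, 163.4 and 205.8 CPM in learning mice 22, 27, 30 and 40. Home cage caffeine mouse 2 stood just below the lowest learning caffeine mouse, so that the groups did not overlap. The rise was 0.84 (SE 0.19, adjusted p = 0.02603), or 1.79-fold, and 1.09 (adjusted p = 0.006271) without home cage caffeine mouse 2.

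Homer1 (ENSMUSG00000007617, chr13:93299635-93405129, plus strand) encodes a scaffold that ties metabotropic glutamate receptors to the postsynaptic density. Its short activity-induced form, Homer1a, lacks the domain for self-association and loosens that scaffold. The counts are of the whole gene, so that short and long forms cannot be told apart. Homer1 stood at 119.8, 155.9, 130.8 and 124.4 CPM in home cage water mice 6, 8, 11 and 20. It stood at 181.8, 209.4, 213.9 and 193.4 CPM in learning water mice 24, 33, 36 and 38. Every learning water mouse was higher than every home cage water mouse, and the rise was 0.59 (SE 0.12, adjusted p = 0.0429), or 1.504-fold. This call was lost in 4 of 8 fits that left out a single mouse, with the value between 0.56 and 0.60 in those and an adjusted p of up to 0.1478, namely without home cage water mouse 11 or 20 or learning water mouse 33 or 36. In caffeine mice Homer1 stood at 143.1, 159.4, 149.9 and 102.3 CPM in home cage mice 2, 9, 14 and 17. It stood at 270.2, 206.2, 259.9 and 211.5 CPM in learning mice 22, 27, 30 and 40. These groups did not overlap either, home cage caffeine mouse 17 being the lowest of all 16 mice. The rise was 0.77 (SE 0.12, adjusted p = 0.003691), or 1.71-fold, and 0.66, still called, without mouse 17.

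Plk2 (ENSMUSG00000021701, chr13:110395046-110400844, plus strand) encodes a kinase that weakens synapses during raised activity. Plk2 was the most highly expressed of the 10 genes and varied little. It stood between 252.2 and 315.2 CPM in home cage water mice, between 253.6 and 287.3 in home cage caffeine mice, between 227.2 and 275.5 in learning water mice and between 261.3 and 295.8 in learning caffeine mice. All 4 ranges overlapped. Its log2 fold change with learning was −0.09 in water mice (95% interval −0.24 to 0.07) and 0.05 in caffeine mice (−0.10 to 0.20), neither called.

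Pcsk1 (ENSMUSG00000021587, chr13:75089826-75134861, plus strand) encodes a prohormone convertase that cuts neuropeptide precursors in secretory granules. Pcsk1 stood at 19.65, 20.07, 19.16 and 22.81 CPM in home cage water mice 6, 8, 11 and 20. It stood at 27.61, 26.4, 26.47 and 30.0 CPM in learning water mice 24, 33, 36 and 38. The groups did not overlap, home cage water mouse 20 being the highest of its group. The rise was 0.43 (SE 0.06, adjusted p = 0.003571), or 1.35-fold. In caffeine mice Pcsk1 stood at 19.81, 19.95, 20.12 and 19.7 CPM in home cage mice 2, 9, 14 and 17. It stood at 24.63, 26.42, 25.98 and 25.02 CPM in learning mice 22, 27, 30 and 40. The home cage caffeine mice were nearly equal, with a coefficient of variation of 0.92%, and all lay below every learning caffeine mouse. The rise was 0.36 (SE 0.06, adjusted p = 0.005718), or 1.28-fold, so that Pcsk1 had the smallest change and the smallest error of the genes that rose.

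Gadd45b (ENSMUSG00000015312, chr10:80930073-80932204, plus strand) encodes an adaptor that activates the stress kinase Map3k4 and takes part in activity-dependent DNA demethylation in hippocampal neurons. Gadd45b stood at 8.06, 7.77, 8.3 and 8.41 CPM in home cage water mice 6, 8, 11 and 20. It stood at 11.26, 12.27, 12.26 and 11.2 CPM in learning water mice 24, 33, 36 and 38. The groups lay well apart, and the rise was 0.53 (SE 0.10, adjusted p = 0.02753), or 1.44-fold. Without learning water mouse 36 the value was 0.51 and the call was lost (adjusted p = 0.1111). In caffeine mice Gadd45b stood at 10.86, 7.8, 7.83 and 9.21 CPM in home cage mice 2, 9, 14 and 17. It stood at 10.55, 10.02, 10.83 and 12.22 CPM in learning mice 22, 27, 30 and 40. Home cage caffeine mouse 2 lay within the range of the learning caffeine mice, and the other 3 lay below it. The log2 fold change of 0.28 (SE 0.10, adjusted p = 0.1356) was not called, and without mouse 2 it was 0.41 and called (adjusted p = 0.04032).

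Gadd45g (ENSMUSG00000021453, chr13:51846678-51848468, plus strand), of the same family, stood between 9.27 and 12.94 CPM in home cage water mice, between 9.31 and 11.33 in home cage caffeine mice, between 9.07 and 13.22 in learning water mice and between 10.71 and 13.85 in learning caffeine mice. The ranges overlapped, and its log2 fold change with learning was −0.04 in water mice (95% interval −0.31 to 0.23) and 0.28 in caffeine mice (0.01 to 0.54, adjusted p = 0.2412), neither called.

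Nptx2 and Inhba encode secreted proteins. Nptx2 (ENSMUSG00000059991, chr5:144545902-144557478, plus strand) is a pentraxin that gathers AMPA receptors at excitatory synapses on interneurons. It stood at 23.66, 25.26, 29.74 and 32.59 CPM in home cage water mice 6, 8, 11 and 20, and at 27.47, 31.4, 33.76 and 28.4 CPM in learning water mice 24, 33, 36 and 38. It stood at 40.24, 29.12, 30.28 and 29.41 CPM in home cage caffeine mice 2, 9, 14 and 17, and at 44.27, 35.91, 33.63 and 32.3 CPM in learning caffeine mice 22, 27, 30 and 40. Within each fluid the groups overlapped, and mice 2 and 22 were the highest of all 16. The log2 fold change with learning was 0.12 (SE 0.12) in water mice and 0.18 (SE 0.12) in caffeine mice, neither called.

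Inhba (ENSMUSG00000041324, chr13:16011851-16031621, plus strand) encodes the activin A subunit, a ligand of the transforming growth factor beta family. It was the lowest of the 10 genes per kb of exon. Inhba stood between 7.74 and 13.67 CPM in home cage water mice, between 9.4 and 14.16 in home cage caffeine mice, between 11.88 and 16.59 in learning water mice and between 9.83 and 16.97 in learning caffeine mice. The lowest mouse of each home cage group was mouse 6 with water and mouse 17 with caffeine, and the ranges overlapped. Its log2 fold change with learning was 0.33 (SE 0.18) in water mice and 0.19 (SE 0.18) in caffeine mice, neither called.

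Ptgs2 (ENSMUSG00000032487, chr1:150100031-150108227, plus strand) encodes cyclooxygenase 2, the inducible enzyme of prostaglandin synthesis. It stood at 28.66, 40.84, 39.31 and 50.4 CPM in home cage water mice 6, 8, 11 and 20, and at 56.08, 42.89, 40.99 and 45.54 CPM in learning water mice 24, 33, 36 and 38. It stood at 42.52, 47.52, 48.68 and 22.88 CPM in home cage caffeine mice 2, 9, 14 and 17, and at 66.29, 44.69, 47.69 and 45.62 CPM in learning caffeine mice 22, 27, 30 and 40. The groups overlapped, and the spread within groups was wide, with a coefficient of variation of up to 29.66%. The log2 fold change with learning was 0.22 (SE 0.20) in water mice and 0.34 (SE 0.20) in caffeine mice, neither called. Summed CA3 markers (Bok, Cpne4, Iyd) were lowest in the same mice as Ptgs2, at 198.2 CPM in mouse 17 and 215.3 CPM in mouse 6. They were 342.7 CPM in mouse 22, 343.5 in mouse 24 and 336.8 in mouse 20, the 3 mice highest in Ptgs2, and 347.9 CPM in mouse 2, which stood in the middle for Ptgs2. Their part in the spread of Ptgs2 was not tested.

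Rgs2 (ENSMUSG00000026360, chr1:143999338-144004161, minus strand) encodes a regulator that speeds the shut-off of Gq signalling. It stood at 37.08, 38.14, 36.08 and 37.48 CPM in home cage water mice 6, 8, 11 and 20, and at 31.04, 33.25, 36.74 and 39.61 CPM in learning water mice 24, 33, 36 and 38. It stood at 36.9, 36.28, 37.63 and 35.55 CPM in home cage caffeine mice 2, 9, 14 and 17, and at 32.06, 34.97, 33.67 and 39.94 CPM in learning caffeine mice 22, 27, 30 and 40. The means lay close together, and the learning mice spread on both sides of the home cage mice. The coefficient of variation was 2.32% and 2.43% in the home cage groups and 10.75% and 9.68% in the learning groups, a difference in spread that was not tested. The log2 fold change with learning was −0.08 in water mice (95% interval −0.24 to 0.07) and −0.06 in caffeine mice (−0.21 to 0.10), neither called.

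**Figure D3:**
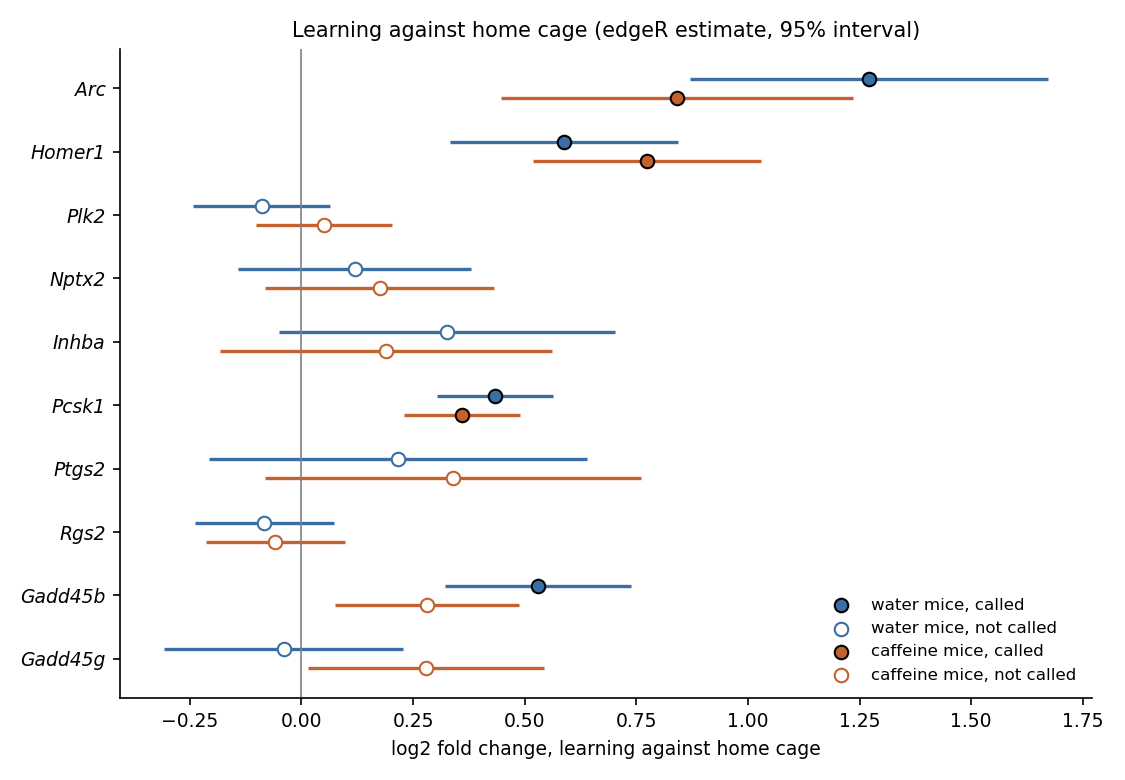
Log2 fold change of each gene between learning and home cage mice, with its 95% interval, in water and in caffeine mice (edgeR, 4 mice per group). Filled points were called at an adjusted p under 0.1: Arc, Homer1 and Pcsk1 with both fluids and Gadd45b in water mice.

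Choroid plexus markers were higher in home cage water mice (306.5 to 2342 CPM) than in learning water mice (165.5 to 434.9 CPM), with overlap, whereas excitatory neuron markers summed to 7303 to 7906 and 7212 to 8018 CPM. In caffeine mice the choroid plexus sums were 193.9 to 504.6 CPM in the home cage and 118.2 to 205.4 CPM after learning, and excitatory neuron sums were 6818 to 7986 and 7367 to 7746 CPM. The mitochondrial share of reads was 3.551% to 3.889% in home cage water mice and 3.294% to 3.443% in learning water mice, with no overlap, and 3.462% to 4.495% and 3.232% to 3.595% in caffeine mice, with overlap. Medians of summed CA1 markers were 563.3 CPM in home cage and 474.4 CPM in learning water mice, and 561.6 and 501.7 CPM in caffeine mice. Medians of summed dentate granule cell markers were 367.6 and 446.8 CPM in water mice and 367.6 and 384.3 CPM in caffeine mice, and the ranges of both lists overlapped. The part of these values in the learning response was not tested. With the 3 mice that stood apart left out together, 4 members still rose in water mice, by 1.39 for Arc, 0.60 for Homer1, 0.57 for Gadd45b and 0.50 for Pcsk1. In that fit 3 members still rose in caffeine mice, by 0.83 for Arc, 0.66 for Homer1 and 0.36 for Pcsk1.

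The second question was whether the response to learning differed with caffeine. No member was called in the test of this difference, and 0.0% of all tested genes were. None of the 10 had an unadjusted p under 0.05 in edgeR, where 3.63% of all tested genes had one, and DESeq2 called none of them either. For Arc the response in caffeine mice minus that in water mice was −0.43 on the log2 scale (SE 0.27, 95% interval −0.99 to 0.13). It was 0.19 for Homer1 (−0.18 to 0.55), −0.25 for Gadd45b (−0.54 to 0.05), −0.07 for Pcsk1 (−0.26 to 0.11) and 0.32 for Gadd45g (−0.06 to 0.70). The interval for Arc still holds a response that is smaller by 0.99 in caffeine mice as well as one that is slightly larger, so that these 4 mice per group do not settle it. Gadd45b was called in water mice and not in caffeine mice, and the difference between these was not called.

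The last question was whether caffeine itself moved these genes. In the home cage no member was called, 0.0% of all tested genes were, and none of the 10 had an unadjusted p under 0.05 (3.57% of all tested genes had one). The largest value was that of Arc, 0.38 (SE 0.19, adjusted p = 0.9965), with 88.91 ± 27.4 CPM (SD, n = 4) in caffeine mice and 68.68 ± 3.031 CPM in water mice. It was 0.14 when home cage caffeine mouse 2 was left out. The largest value in the other direction was that of Gadd45g, −0.15 (95% interval −0.42 to 0.12).

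After learning no member was called between caffeine and water mice, 0.0% of all tested genes were, and 1 of the 10, Nptx2, had an unadjusted p under 0.05 (3.93% of all tested genes had one). Nptx2 stood at 36.53 ± 5.373 CPM in learning caffeine mice and 30.26 ± 2.873 CPM in learning water mice (SD, n = 4), a log2 fold change of 0.27 (SE 0.12, adjusted p = 0.9991), and the groups overlapped. Homer1 was at 236.9 ± 32.79 and 199.6 ± 14.77 CPM, a log2 fold change of 0.25 (SE 0.12, adjusted p = 0.9991). Pcsk1 was at 25.51 ± 0.833 and 27.62 ± 1.68 CPM, a log2 fold change of −0.11 (SE 0.06, adjusted p = 0.9991), and the learning caffeine mouse with the most Pcsk1 reached only the lowest of the learning water mice. Arc did not differ detectably, with 159.6 ± 33.99 and 165.7 ± 40.62 CPM and a 95% interval of −0.44 to 0.34.

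Averaged over home cage and learning mice, no member was called for caffeine and 0.0% of all tested genes were. Nptx2 alone of the 10 had an unadjusted p under 0.05 (4.07% of all tested genes had one), with a log2 fold change of 0.24 (SE 0.09, adjusted p = 0.9855). It was 0.18 without home cage caffeine mouse 2 and 0.19 without learning caffeine mouse 22, the mice with the most Nptx2. DESeq2 called no member in any of the 3 caffeine comparisons.

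**Figure D4:**
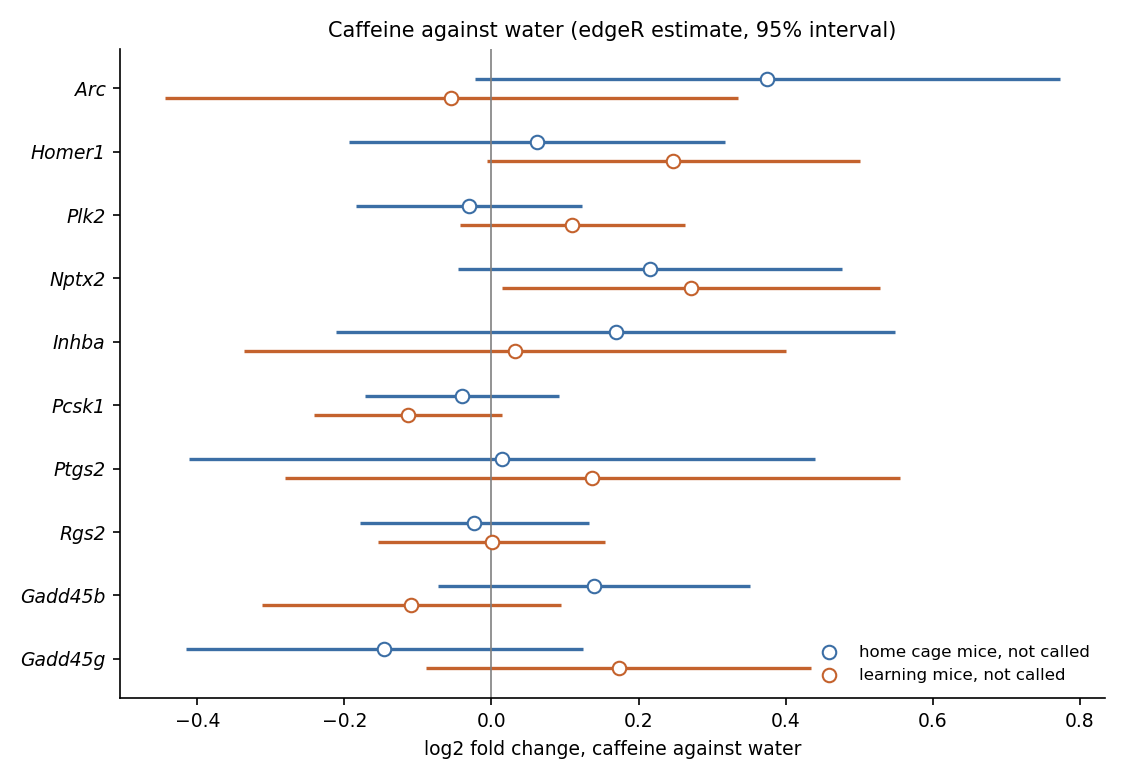
Log2 fold change of each gene between caffeine and water mice, with its 95% interval, in home cage and in learning mice (edgeR, 4 mice per group). No gene was called, and the interval of Nptx2 after learning is the only one of the 20 that does not hold 0.

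The relatives and partners of the 10 genes form a list of their paralogs, receptors and binding partners, of which 55 were tested. In water mice none was called by edgeR, where 0.97% of all tested genes were. An unadjusted p under 0.05 was found for 7. The share over all tested genes is not given here, so nothing is read from this count. DESeq2 called 0 of them on all 16 mice and 1 on these 8 mice, where 2.39% and 2.79% of all tested genes were called. Without home cage water mouse 8 edgeR called 1, where 1.24% of all tested genes were called. In caffeine mice 1 rose, Rgs16, a relative of Rgs2, by 0.40 (SE 0.13, adjusted p = 0.09544), from 5.698 ± 0.1022 to 7.531 ± 1.338 CPM, where 5.28% of all tested genes were called. The list count in caffeine mice depended on the processing. It was 0 with edgeR on the compared mice, at an adjusted p under 0.05, without home cage caffeine mouse 17 or learning caffeine mouse 27 or 30, and without the 3 mice that stood apart. It was 3 with at least 10 counts in every library, where 6.71% of all tested genes were called. With DESeq2 it was 5 on all mice and 6 on the compared mice, where 8.87% and 7.78% of all tested genes were called. In water mice Rgs16 was at 6.318 ± 0.8848 and 6.378 ± 0.6494 CPM. The median log2 fold change of the list was 0.05 in water mice and 0.02 in caffeine mice.

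Averaged over both fluids, 7 of the 55 rose and 3 fell, where 7.81% of all tested genes rose and 6.71% fell. The share called in either direction was near the 14.5% of all tested genes, so the genes named below are no sign of a response of the list. These 10 calls became 5 without learning water mouse 36, 6 without home cage caffeine mouse 17, learning water mouse 38 or learning caffeine mouse 30 or 40, and 5 at an adjusted p under 0.05. The highest count without a single mouse was 12, without home cage caffeine mouse 2, where 14.6% of all tested genes were called. Map3k4, the kinase that Gadd45 proteins activate, rose by 0.24 (SE 0.05, adjusted p = 0.012). Furin, a convertase related to Pcsk1, rose by 0.16 (SE 0.04, adjusted p = 0.01787). Smad2, which carries the activin signal to the nucleus, rose by 0.17 (adjusted p = 0.0242), and Acvr2a, an activin receptor, by 0.24 (adjusted p = 0.06487). Of those that fell, Ptges, a prostaglandin E synthase downstream of Ptgs2, dropped by 0.39 (adjusted p = 0.02794), Fstl3, an activin-binding inhibitor, by 0.58 (adjusted p = 0.0342) and Pcsk4 by 0.38 (adjusted p = 0.08616). These 3 had low levels, with group means of at most 3.22 CPM.

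Among 20 other activity-regulated effector genes, 2 rose in water mice and 4 in caffeine mice, and none fell, where 0.639% and 3.16% of all tested genes rose. The count in water mice was 1 in 6 of the 8 fits without a single mouse (home cage water mouse 6, 11 or 20 or learning water mouse 33, 36 or 38). With DESeq2 it was 4 on all and on the compared mice, where 2.39% and 2.79% of all tested genes were called. Tiparp, a mono-ADP-ribosyltransferase, rose by 0.49 (SE 0.08, adjusted p = 0.01158) in water mice and by 0.43 (SE 0.08, adjusted p = 0.01241) in caffeine mice. Arl5b, a small GTPase, rose by 0.44 (SE 0.10, adjusted p = 0.05089) and 0.49 (SE 0.09, adjusted p = 0.01241). Cdkn1a, a cell cycle inhibitor, rose in caffeine mice by 0.64 (adjusted p = 0.04031) and Arl4d by 0.62 (adjusted p = 0.08357). Averaged over both fluids 9 of the 20 rose, Trib1 among them by 0.38 (adjusted p = 0.02018), where 7.81% of all tested genes rose. This count was 5 without learning water mouse 33, without the 3 mice that stood apart and at an adjusted p under 0.05, and 11 without home cage caffeine mouse 2. The median log2 fold change of the list was 0.19 in water mice and 0.12 in caffeine mice.

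Of 12 immediate early transcription factor genes, 9 rose in water mice, 10 in caffeine mice and all 12 on average, where 0.639%, 3.16% and 7.81% of all tested genes rose. Without a single mouse these counts were 6 to 9, 8 to 10 and 11 to 12. Fos rose by 2.39 (SE 0.20) in water mice and by 1.57 (SE 0.19) in caffeine mice, from 2.5 ± 0.741 to 13.28 ± 2.136 CPM and from 4.743 ± 1.19 to 14.24 ± 2.689 CPM. Egr1 rose by 1.19 (SE 0.11) and 1.12 (SE 0.11). Npas4 rose by 0.73 (SE 0.17, adjusted p = 0.08122) in water mice and had a value of 0.20 (SE 0.17, adjusted p = 0.54) in caffeine mice. The median log2 fold change of the 12 was 0.78 in water mice and 0.66 in caffeine mice, above the 0.27 and 0.28 of the 10 effector genes, and these medians were not tested against each other.

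**Figure D5:**
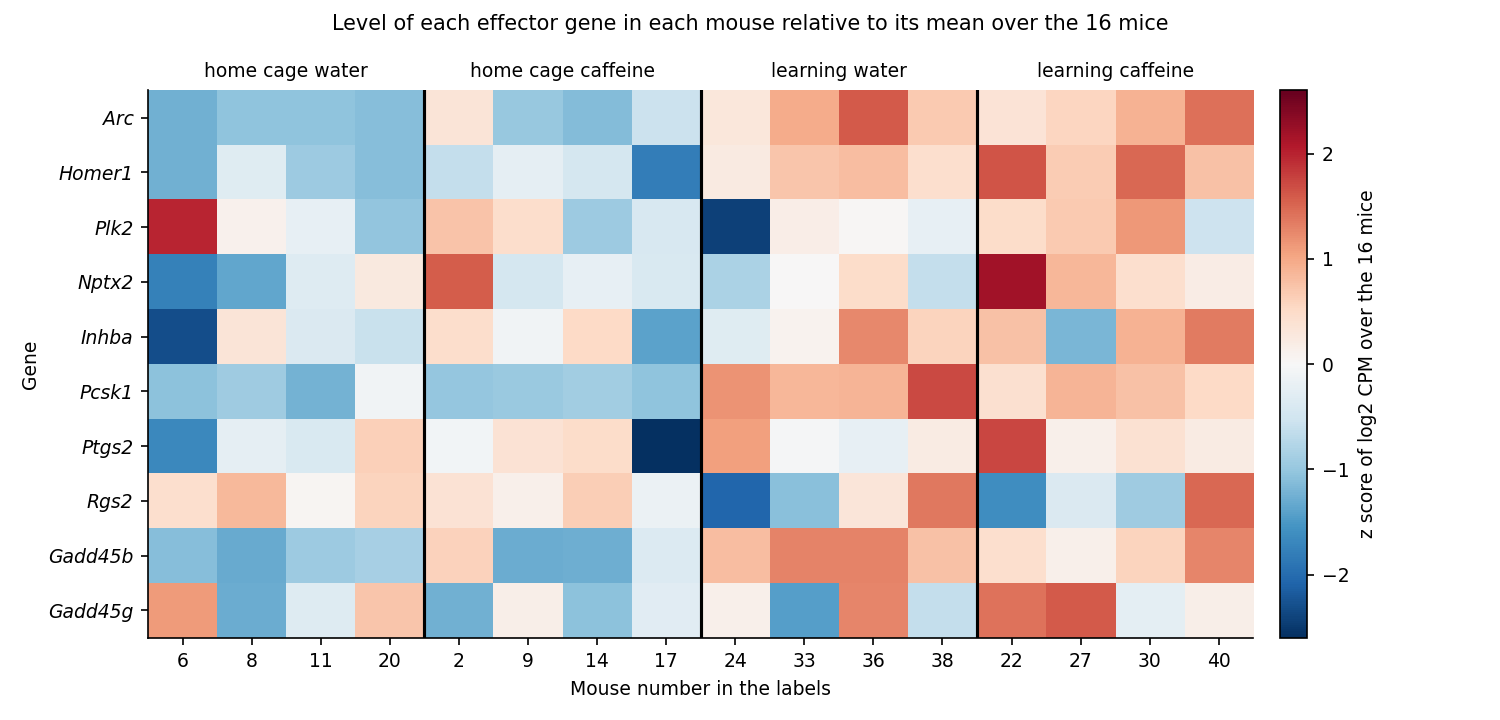
Level of each gene (rows) in each of the 16 mice (columns, grouped and ordered by mouse number) as a z score of log2 CPM over the 16 mice, red above and blue below the gene's mean. Arc, Homer1, Pcsk1 and Gadd45b are below 0 in the 4 home cage water mice and above 0 in the 8 learning mice, and Plk2 and Rgs2 show the lowest value of all mice in learning water mouse 24.

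In no mouse did all 10 genes lie on the same side of their group mean, and their joint movement from mouse to mouse was not tested. The mean z score over the members, a description of each mouse, ran from −0.691 to −0.258 in home cage water mice and from −0.903 to 0.111 in home cage caffeine mice. It ran from −0.196 to 0.766 in learning water mice and from 0.392 to 0.778 in learning caffeine mice. Learning water mouse 24 was the only learning mouse below 0, and home cage caffeine mouse 2 the only home cage mouse above 0. Mouse 2 lay above its group mean for 8 of the 10 members, with Arc higher by 0.57 on the log2 scale, Nptx2 by 0.33 and Gadd45b by 0.30. Home cage caffeine mouse 17 had a z score below 0 for all 10 members, and lay below its group mean by 0.76 for Ptgs2, 0.42 for Homer1 and 0.39 for Inhba. Home cage water mouse 6 lay below its group mean for 8 of the 10, with Inhba lower by 0.49 and Ptgs2 by 0.45, and it had the highest Plk2 of all mice. Home cage water mouse 20 and learning water mouse 36 each lay above their group mean for 8 of the 10.

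Genes outside the 10 with the most similar course over the 16 mice were found by the mean absolute difference of z scores from the members' rescaled mean, among 13369 genes with enough reads. The median difference was 1.104. Parp1, which encodes a poly(ADP-ribose) polymerase, was closest at 0.2683, with 118.8 and 118.1 CPM in the home cage groups with water and caffeine and 138.7 and 139.8 CPM in the learning groups. Morc2b followed at 0.2855, Tent5a at 0.3168, Smarca5, a chromatin remodeler, at 0.3304 and Per2, a core gene of the circadian clock, at 0.3349. Per2 stood at 32.61 and 32.09 CPM in the home cage groups and at 60.96 and 62.97 CPM in the learning groups. Of the members themselves, Arc (0.37) and Homer1 (0.3843) lay nearest to their mean and Rgs2 (1.271) farthest from it, beyond the median gene. Each member is part of that mean, so its distance is not on equal terms with those of genes outside the 10.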

How the data were processed

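RNA-Seq libraries of 16 dorsal hippocampi (TRIzol RNA, TruSeq Stranded mRNA kit, single-end 50 base reads) were processed by the authors, whose alignment to mm10 used STAR together with Bowtie 2. Uniquely mapping reads entered the gene counts, made by HTSeq-count 0.6.1p1 in union mode with Ensembl annotation. The deposited values are raw counts per gene in 1 column per mouse, not normalized. The strand setting of the counting is not given in the sources used here, and no member shares exon bases with another gene.

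Groups were taken from the sample labels, with 4 mice in each. The members and gene lists were chosen with earlier results of these data known. Identifiers were matched to GENCODE M21 (GRCm38), with 35247 of 35328 genes matched and 81 not. Counts were filtered by edgeR's filterByExpr, scaled by TMM and fitted with 1 mean per group over all 16 libraries (edgeR 4.0.16, quasi-likelihood, R 4.3.3). Benjamini-Hochberg adjustment ran over all 17830 tested genes and genes were called at an adjusted p under 0.1. SEs and 95% intervals were derived from the quasi-likelihood F statistic. Beside it, an exact two-sided permutation test of CPM between 4 and 4 mice was run, for which the smallest p is 0.02857. CPM was computed on TMM-scaled totals, per kb over the union of exons. z scores used log2 CPM with a prior count of 2.

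No batch is given in the labels. Replicates differed by more than counting noise (chi-square per degree of freedom 5.654 to 33.15 over 24 pairs), and p-values measure the spread between these mice. The intervals on changes between groups come from the quasi-likelihood fit, so they hold that spread as well as counting error. Total reads were 23078094 to 49949281, and the lowest count of a member was 181. Named genes followed a written rule: all 10 members, for relatives and other effectors at most 4 called genes of smallest p per direction, Fos, Egr1 and Npas4, and the 5 genes most alike in course. Alternatives were DESeq2 1.42.0, other size factors, filters, thresholds, robust estimation, fits on the compared libraries only and leaving out each mouse. Leaving out the 3 mice that stood apart together was chosen after seeing the data. The code was tested on simulated data.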

Additional observations from a re-analysis of the deposited data

Results flagged for a closer look

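In 3 of the 40 sets of 1 gene in 1 group of 4 mice, a single mouse lay far from the other 3, by the gap to its nearest neighbour divided by the range of the group (Dixon's test at the 95% level). Chance gives about 1 in 20 such sets. Plk2 was lowest in learning water mouse 24 (ratio 0.8367), at 227.2 CPM against 267.6 to 275.5 CPM in the other 3. Nptx2 was highest in home cage caffeine mouse 2 (ratio 0.8958), at 40.24 CPM against 29.12 to 30.28 CPM. Ptgs2 was highest in learning caffeine mouse 22 (ratio 0.861), at 66.29 CPM against 44.69 to 47.69 CPM. Mouse 24 also had the highest oligodendrocyte marker sum of all mice, 9827 CPM, and the lowest sum of CA1 markers, 360.0 CPM. Mice 2 and 22 had CA3 marker sums of 347.9 and 342.7 CPM, where the other mice of their groups had 198.2 to 295.3 and 264.9 to 286.3 CPM. The part of these markers in the outlying values was not tested.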

How the results depend on the processing

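No paired analysis was possible because each mouse number in the labels occurs in 1 group only. Outside the fits that left out mice, no alternative changed the direction of a member. The number of called members was 4 in water mice, 3 in caffeine mice, 4 on average and 0 in the other 4 comparisons under every alternative that left out no single mouse, except that the DESeq2 Wald test called 4 in caffeine mice by adding Gadd45b (0.29, adjusted p = 0.07442). Leaving out each mouse in turn gave 2 to 4, 3 to 4, 4 to 5 and 0 called members, with 2 without learning water mouse 36. Of single members over all alternatives, 5 calls were lost (Homer1 in 4 fits and Gadd45b in 1, all in water mice) and 4 were gained (Gadd45b in 2 fits in caffeine mice, Nptx2 and Inhba in 1 each on average).

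Some values that were not called changed sign when mice were left out. Over those fits Gadd45g ranged from −0.14 to 0.043 for learning in water mice, Rgs2 from −0.12 to 0.0 for learning in caffeine mice and Plk2 from −0.037 to 0.029 for the average learning response. For the difference between the learning responses Nptx2 ranged from −0.047 to 0.18, Inhba from −0.25 to 0.008, Ptgs2 from −0.072 to 0.25 and Rgs2 from −0.034 to 0.086. For caffeine in the home cage Homer1 ranged from −0.006 to 0.19, Plk2 from −0.071 to 0.037, Pcsk1 from −0.065 to 0.021 and Ptgs2 from −0.11 to 0.21. For caffeine after learning Arc ranged from −0.20 to 0.12, Inhba from −0.054 to 0.18, Ptgs2 from −0.006 to 0.25 and Rgs2 from −0.059 to 0.065. For the average caffeine effect Rgs2 ranged from −0.042 to 0.022, Gadd45b from −0.039 to 0.048 and Gadd45g from −0.026 to 0.069. With the 3 mice that stood apart left out together, the difference between the learning responses was −0.12 for Nptx2, −0.10 for Ptgs2 and −0.049 for Rgs2, the home cage caffeine value of Pcsk1 was 0.026, the values after learning were −0.039 for Inhba and −0.053 for Rgs2, and the average caffeine value of Plk2 was −0.003.

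Counts over all genes depended more on the processing. In water mice 173 genes were called, between 37 and 223 without a single mouse, 70 at an adjusted p under 0.05, 290 with any gene of at least 1 count, 85 with edgeR on the 8 compared mice, 426 and 476 with DESeq2 and 80 without the 3 mice. In caffeine mice 942 were called, between 382 and 1182 without a single mouse, 449 at 0.05, 617 with edgeR on the compared mice and 1581 with DESeq2. On average 2590 were called, between 1783 and 3191 without a single mouse, 1384 at 0.05 and 1713 without the 3 mice. In the other 4 comparisons edgeR called 0 on all mice as filtered above. Without home cage water mouse 6 it called 33 for caffeine in the home cage and 24 for the average caffeine effect, other fits without a single mouse gave at most 1, and robust estimation called 1 in the home cage. DESeq2 called 7 for the difference between the responses, 19 for caffeine in the home cage, 7 after learning and 15 on average. With edgeR on every gene of at least 1 count these were 9, 34, 8 and 36. The causes were not tested. With 4 mice per group, the 95% intervals set the size of a caffeine effect that could be missed, which for Arc reached 0.77 in the home cage.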
